A study of Mus musculus with 8 samples.

Results

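Stereocilia, the actin-filled rods of the hair bundle, are built and held by a small set of proteins that bundle, cap or anchor actin filaments. The 10 genes described here encode the espins (Espn, Espnl), the fascins (Fscn1, Fscn2), the plastins (Pls1, Pls3), Eps8 and its relative Eps8l2, the rootlet protein Triobp, and radixin (Rdx). They were listed by name and function, with earlier results of these data known, and each matched 1 row of the 78317 genes in the expression table. RNA came from the basilar membrane, on which the hair cells and supporting cells of the cochlea sit, of mice at postnatal day 6. The hete group (4 libraries) has the genotype tag WT, and the homo group (4 libraries) has the tag Dnajc17 cKO, a conditional knockout. The title name hete and the tag WT may not stand for the same control genotype, which the sources used here do not settle. The sources used here name no strain, Cre driver, deleted exon or number of animals per library. Nothing says that the libraries came from separate animals, so p-values measure the spread between libraries, which may be technical. The product of Dnajc17 is a co-chaperone of the J-domain family that also has an RNA-binding domain, and the study concerns its part in hair cell RNA splicing and in hearing.

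In each stereocilium, many parallel actin filaments run from a rootlet in the cell body to the tip. Crosslinkers (espins, fascins, plastins) hold the filaments together and set how tightly they pack, capping proteins of the Eps8 family act at the barbed ends at the tip, Triobp bundles the rootlet, and radixin ties actin to the membrane near the base. In mice, loss of Espn, Pls1, Eps8, Eps8l2, Triobp or Rdx function impairs hearing. Several of these proteins also serve cells outside the hair bundle, among them supporting cells, neurons and fibroblasts.

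The values are TPM (transcript abundance per 1000000, corrected for transcript length), so levels of different genes can be set side by side. Read numbers cannot be recovered from TPM, so library depth is unknown. Each library had 28159 to 28969 genes above 0. Dnajc17, the targeted gene, was at 22.06 to 26.51 TPM in hete and at 18.04 to 31.08 TPM in homo (limma-trend log2 fold change 0.07, SE 0.15, adjusted p = 0.969). This value covers the whole gene in whole tissue. The deleted exon and the cells that carry the deletion are not named, so the value does not check the deletion. Hair cells were present in every library by their markers: all 20 listed hair cell markers averaged 1 TPM or more over the 8 libraries, the filter for testing. None of them was below 1.81 TPM in any library. The 20 markers summed to 466 to 642 TPM in hete and 338 to 517 TPM in homo. Ocm, Calb2 and Pvalb weigh most in these sums, and spiral ganglion neurons also make Calb2 and Pvalb. Ocm alone averaged 177 ± 73.7 TPM in hete and 90.2 ± 26.4 TPM in homo (SD, n = 4 each). Its groups overlapped, with hete replicate 2 at 100.86 TPM and homo replicate 1 at 121.98 TPM, and hete replicate 4 was highest at 277.77 TPM. The log2 fold change was -0.92 (SE 0.34, adjusted p by limma-trend = 0.760).

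None of the 10 genes passed the test between homo and hete. Fold changes below divide homo by hete on the log2(TPM + 1) scale, where changes of low genes are understated, and a gene counts as changed at an adjusted p under 0.05 by limma-trend over the 17811 genes tested. All 10 passed the filter, and 0 of 10 were called, against 0.0112% of all tested genes (2 of 17811). Their adjusted p ran from 0.746 (Pls1) to 0.997 (Eps8). At an unadjusted p under 0.05 there was 1 of 10, Pls1, against 6.05% of all tested genes. By limma-trend the unadjusted p of Pls1 rose to 0.0557 with the replicate block, to 0.0642 without hete replicate 2 and to 0.0681 without homo replicate 2. Pls1 was also the 1 of 10 whose groups did not overlap, all homo values lying above all hete values, against 3.99% of all tested genes in either direction and 2.58% in that direction. In direction 6 genes were higher and 4 lower in homo, where 56.3% of all tested genes were higher. The median log2 fold change was 0.03 over the 10 genes and 0.02 over all tested genes, and the median absolute log2 fold change was 0.08 and 0.09. The medians and the share of higher genes lie close to those of all tested genes. The counts under an unadjusted p of 0.05 and without overlap each rest on 1 gene of 10, Pls1. They are too small to be set closely against the shares of all tested genes.

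The precision of this comparison can be read from the 95% intervals. Standard errors of the log2 fold change ran from 0.07 for Pls3 and Rdx to 0.16 for Fscn2. Taken over the 10 genes, the intervals reached from 0.793 times the hete level (the lower bound of Espn) to 1.38 times (the upper bound of Fscn2). Within a group the coefficient of variation ran from 2.18% (Triobp in homo) to 22.0% (Fscn2 in hete). The intervals are for RNA of the whole tissue. Several of the 10 genes are also made by other cells, so the intervals do not bound a change within hair cells. In bulk tissue, fewer hair cells and less RNA per hair cell cannot be told apart.

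**Figure D1:**
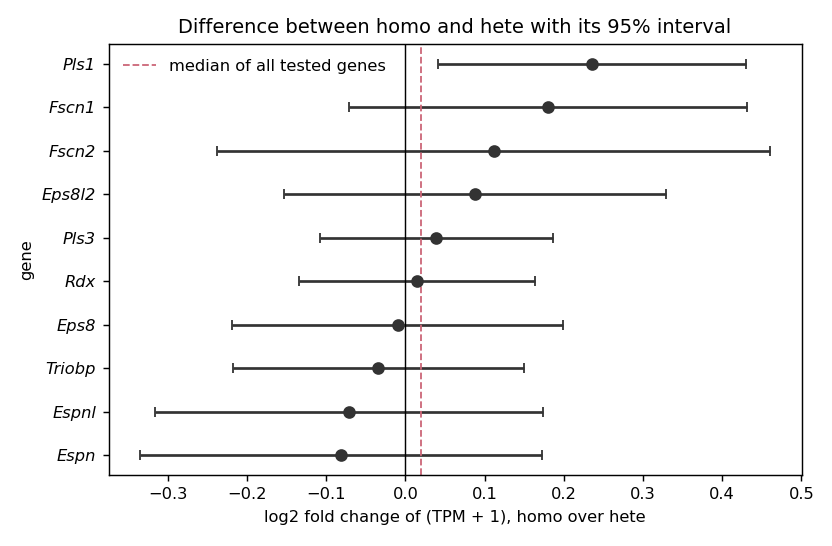
Log2 fold change of TPM + 1, homo over hete, for the 10 genes (horizontal axis; points are limma-trend estimates from 4 libraries per group, bars their 95% intervals); the dashed line is the median of all tested genes, 0.02. The interval of Pls1, 0.04 to 0.43, lies above 0 before adjustment, and the intervals of the other 9 genes include 0.

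The levels formed 6 steps, taking neighbours in the order whose ranges overlapped as 1 step. Fscn1 (94.4 ± 13.1 TPM, SD over 8 libraries) and Rdx (90.4 ± 5.12) stood highest, above 90% of all tested genes, and each was the higher of the pair in 4 of 8 libraries. Triobp (71.7 ± 5.66) and Pls3 (69.7 ± 3.87) followed and also overlapped, Triobp being higher in 5 of 8 libraries. The lowest value of Fscn1, 80.09 TPM, also lay below the highest of Triobp, 81.40 TPM. Eps8l2 was alone at 35.2 ± 4.19 TPM. The next genes were Pls1 (21.0 ± 2.43), Espn (16.5 ± 1.97) and Eps8 (13.5 ± 1.11), whose ranges overlapped from neighbour to neighbour: Pls1 lay above Espn in 6 of 8 libraries and Espn above Eps8 in 7 of 8. Espnl (8.46 ± 0.91) and Fscn2 (3.51 ± 0.63) were lowest, and each lay below the next gene in all 8 libraries with no overlap of ranges. Espn, Espnl and Fscn2, whose proteins are found in the hair bundle, were in the lower part of the order. Fscn1, Rdx and Pls3, which many cell types make, were in the upper part. The order did not divide the 10 genes by a role in the bundle. Triobp, of the rootlet, was also in the upper part, and radixin itself serves stereocilia. Eps8l2 and Pls1, of stereocilia as well, stood between these parts, and Eps8 among the lower genes. In the table's own gene ontology annotation, 8 of the 10 genes carry a term with the word stereocilium, as do 101 genes in all, and Fscn1 and Pls1 carry none.

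**Figure D2:**
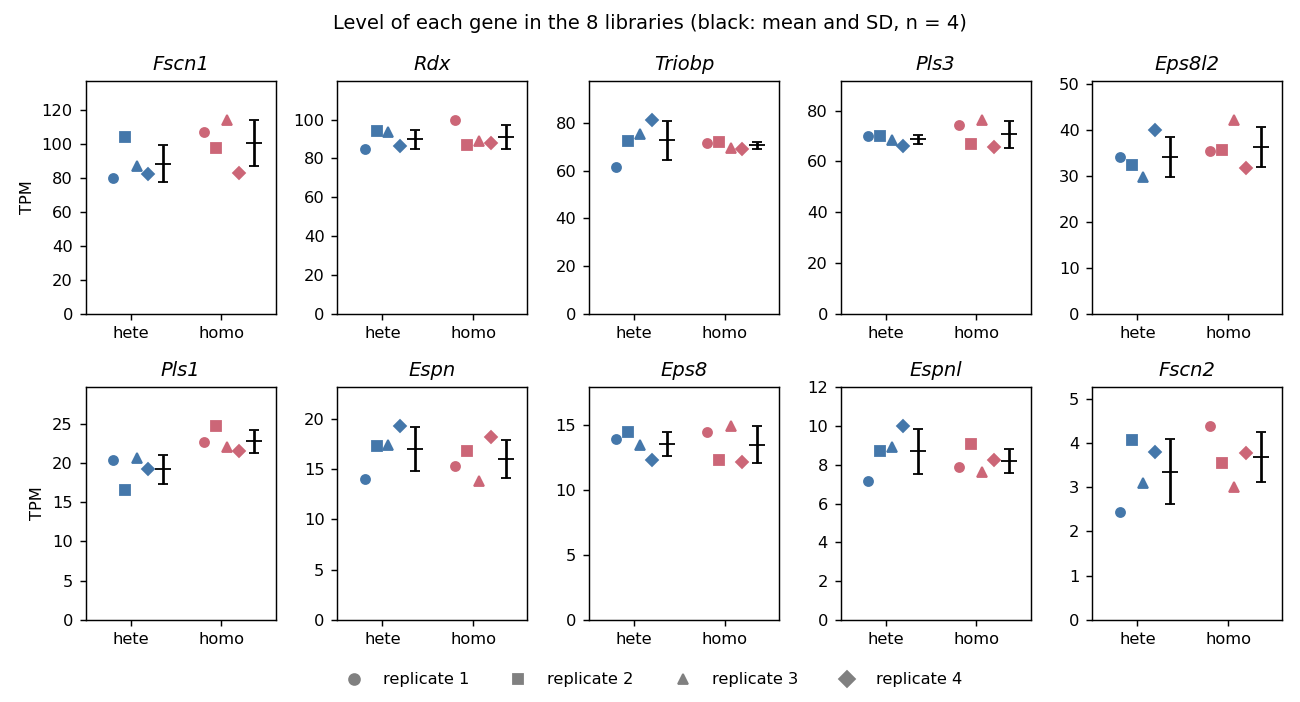
TPM of each gene in the 4 hete (blue) and 4 homo (red) libraries, on a vertical axis from 0 that differs between panels; marker shapes give the replicate number, which does not pair libraries, and black bars the group mean and SD (n = 4). The groups overlap in every panel but Pls1, where hete lies at 16.54 to 20.65 and homo at 21.49 to 24.72 TPM.

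The espins are actin bundlers with a very tight grip on parallel filaments, and loss of Espn underlies the deaf jerker mouse. Espn (ENSMUSG00000028943, chromosome 4) had 14.03, 17.32, 17.36 and 19.29 TPM in the hete libraries and 15.28, 16.77, 13.78 and 18.17 TPM in the homo libraries, here and below in the order of replicates 1 to 4. The groups overlapped throughout, with homo replicate 3 lowest and hete replicate 4 highest. The means were 17.0 ± 2.18 and 16.0 ± 1.89 TPM (SD, n = 4 each), at a log2 fold change of -0.08 (SE 0.11; adjusted p by limma-trend = 0.946). Espnl (ENSMUSG00000049515, chromosome 1), the espin-like gene, whose protein is found in stereocilia, had 7.18, 8.73, 8.92 and 10.01 TPM in hete and 7.89, 9.08, 7.63 and 8.23 TPM in homo. Again hete replicate 4 was highest and the groups overlapped (means 8.71 ± 1.17 and 8.21 ± 0.63 TPM, SD, n = 4 each), at a log2 fold change of -0.07 (SE 0.11; adjusted p by limma-trend = 0.952). Espn made up 64.4 to 68.8% of the summed TPM of the 2 espin genes, and both genes were highest in hete replicate 4.

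The promoter windows of both espin genes and of Pls1 are shown because the espins moved together from library to library and Pls1 was the gene whose groups did not overlap. They are from RefSeq on GRCm38.p6, each with the 250 bases before and 50 after an annotated start, and Espn has 3 annotated starts, of which the most upstream is given. Capitals mark the E-box CANNTG, the letters bound by basic helix-loop-helix factors such as Atoh1, which hair cells need to form.
Espn, chr4:152152340-152152639, minus strand: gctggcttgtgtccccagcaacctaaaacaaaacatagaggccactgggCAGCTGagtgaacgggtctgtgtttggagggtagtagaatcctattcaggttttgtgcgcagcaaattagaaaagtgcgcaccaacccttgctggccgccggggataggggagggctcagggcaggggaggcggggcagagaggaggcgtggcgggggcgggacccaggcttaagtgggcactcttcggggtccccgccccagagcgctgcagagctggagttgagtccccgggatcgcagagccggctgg
Espnl, chr1:91321825-91322124, plus strand: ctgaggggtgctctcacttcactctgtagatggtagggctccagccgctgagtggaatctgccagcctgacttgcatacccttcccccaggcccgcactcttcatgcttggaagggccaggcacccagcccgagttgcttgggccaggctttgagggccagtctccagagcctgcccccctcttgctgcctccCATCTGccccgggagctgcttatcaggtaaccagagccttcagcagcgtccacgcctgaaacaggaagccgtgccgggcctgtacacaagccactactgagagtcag
Pls1, chr9:95845230-95845529, minus strand: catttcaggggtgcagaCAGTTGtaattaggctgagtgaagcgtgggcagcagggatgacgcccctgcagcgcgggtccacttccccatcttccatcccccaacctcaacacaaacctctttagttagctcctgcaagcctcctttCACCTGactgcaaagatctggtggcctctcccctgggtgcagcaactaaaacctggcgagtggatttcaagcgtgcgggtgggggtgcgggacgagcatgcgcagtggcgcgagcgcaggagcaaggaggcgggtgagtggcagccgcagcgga
The E-box stood once in the Espn window, there as CAGCTG, once in the Espnl window and 2 times in the Pls1 window. Windows were found for 9 of the 10 genes, 15 windows in all. Windows 1 and 2 of Pls3 share most of their bases, so some motifs are counted more than once. An E-box was in 11 of the 15 windows, against 72.3% of all 32851 windows, and in at least 1 window of 7 of the 9 genes. The letters CAGCTG were in 4 of the 15 and in 16.3% of all windows. GGGCGG, the GC box, was in 8 of the 15 (6 of the 9 genes), against 35.7%, and TATAAA, the TATA box, in 2 of the 15, against 13.6%. Both strands were searched, and CAGCTG is itself an E-box. The Espn window held 2 GC boxes, and the Espnl and Pls1 windows held 0. These counts describe letters in a window and not binding.

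The fascins crosslink actin into stiff, straight bundles. Fscn1 (ENSMUSG00000029581, chromosome 5), the form of filopodia and migrating cells, had 80.09, 104.0, 87.18 and 82.08 TPM in hete and 107.12, 97.53, 114.18 and 82.65 TPM in homo. The 2 highest libraries were homo replicates 3 and 1, but hete replicate 2 lay above homo replicates 2 and 4. The means were 88.3 ± 10.9 and 100.4 ± 13.6 TPM (SD, n = 4 each), at a log2 fold change of 0.18 (SE 0.11; adjusted p by limma-trend = 0.870). Fscn2 (ENSMUSG00000025380, chromosome 11), the fascin of photoreceptors and of hair cell stereocilia, had 2.43, 4.07, 3.10 and 3.80 TPM in hete and 4.38, 3.54, 3.01 and 3.76 TPM in homo. The lowest value was in hete replicate 1, the highest in homo replicate 1, and the groups overlapped (3.35 ± 0.74 and 3.67 ± 0.57 TPM, SD, n = 4 each), at a log2 fold change of 0.11 (SE 0.16; adjusted p by limma-trend = 0.946). Without hete replicate 1 the log2 fold change of Fscn2 was 0.00. Fscn2 made up 2.56 to 4.41% of the summed fascin TPM and Fscn1 95.3 to 97.3%. Fscn3, a fascin of the testis, was below the filter at 0.15 to 0.82 TPM.

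The plastins, also called fimbrins, bind actin under the regulation of a calcium-binding head. Pls1 (ENSMUSG00000049493, chromosome 9), the plastin of intestinal microvilli and a main crosslinker of stereocilia, had 20.34, 16.54, 20.65 and 19.29 TPM in hete and 22.72, 24.72, 22.04 and 21.49 TPM in homo. All 4 homo libraries lay above all 4 hete libraries, and hete replicate 2 was lowest. The means were 19.2 ± 1.87 and 22.7 ± 1.41 TPM (SD, n = 4 each), at a log2 fold change of 0.24 (SE 0.09, 95% interval 0.04 to 0.43; limma-trend, unadjusted p = 0.0221, adjusted p = 0.746), so the difference did not pass the test over all genes. The log2 fold change was between 0.17 (without hete replicate 2) and 0.27 (without hete replicate 3) when 1 library was left out. Pls3 (ENSMUSG00000016382, chromosome X), the plastin of many tissues, had 70.07, 69.96, 68.41 and 66.21 TPM in hete and 74.18, 66.84, 76.37 and 65.47 TPM in homo. The homo libraries lay on both sides of the hete libraries, with replicates 3 and 1 above all of them and replicate 4 below (68.7 ± 1.80 and 70.7 ± 5.37 TPM, SD, n = 4 each), at a log2 fold change of 0.04 (SE 0.07; adjusted p by limma-trend = 0.955). Pls1 made up 15.9 to 23.0% of the summed plastin TPM. Lcp1, the plastin of blood cells, averaged 16.2 ± 1.37 TPM in hete against 17.6 ± 3.86 TPM in homo (SD, n = 4 each).

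Eps8 proteins cap the barbed ends of actin filaments and bundle them. Eps8 (ENSMUSG00000015766, chromosome 6), carried to the tips of the tallest stereocilia with the motor Myo15a and whirlin, had 13.88, 14.44, 13.45 and 12.26 TPM in hete and 14.44, 12.28, 14.89 and 12.15 TPM in homo. Both groups covered almost the same range (13.5 ± 0.93 and 13.4 ± 1.43 TPM, SD, n = 4 each), at a log2 fold change of -0.01 (SE 0.09; adjusted p by limma-trend = 0.997). Eps8l2 (ENSMUSG00000025504, chromosome 7), the relative that maintains mature bundles, had 34.23, 32.41, 29.83 and 40.03 TPM in hete and 35.57, 35.60, 42.28 and 31.78 TPM in homo. The highest libraries were homo replicate 3 and hete replicate 4, and the groups overlapped (34.1 ± 4.33 and 36.3 ± 4.37 TPM, SD, n = 4 each), at a log2 fold change of 0.09 (SE 0.11; adjusted p by limma-trend = 0.937). Without homo replicate 3 the log2 fold change of Eps8l2 was 0.01. An antisense gene, B230206H07Rik (2.52 to 8.17 TPM), overlaps exons of Eps8l2. The library kit keeps strand but the strand setting of the counting is not given in the sources used here, so the 2 genes may not be told apart. Among relatives, Eps8l1 was at 7.78 to 18.55 TPM and Eps8l3 was listed at 0 in all 8 libraries.

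Triobp (ENSMUSG00000033088, chromosome 15) bundles the filaments of the rootlet, which anchors each stereocilium in the cuticular plate. It had 61.48, 72.70, 75.35 and 81.40 TPM in hete and 71.71, 72.24, 69.66 and 69.08 TPM in homo. The homo libraries were close together and lay inside the hete range (72.7 ± 8.34 and 70.7 ± 1.54 TPM, SD, n = 4 each), at a log2 fold change of -0.03 (SE 0.08; adjusted p by limma-trend = 0.972). The gene gives rise to long isoforms of the rootlet and a short isoform found in many cells, and the table sums them, so the value does not follow the rootlet form alone. An antisense gene model, Gm10865, overlaps its exons and has no row in the table.

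Rdx (ENSMUSG00000032050, chromosome 9) encodes radixin, the ERM (ezrin, radixin, moesin) protein of the lower stereocilium, where it links actin to membrane proteins. It had 85.13, 94.31, 93.92 and 86.41 TPM in hete and 99.95, 86.76, 88.98 and 88.08 TPM in homo. Homo replicate 1 stood above all others, and the other 3 homo values lay inside the hete range (89.9 ± 4.85 and 90.9 ± 6.07 TPM, SD, n = 4 each), at a log2 fold change of 0.02 (SE 0.07; adjusted p by limma-trend = 0.987). Radixin made up 29.2 to 34.1% of the summed TPM of the 3 ERM genes. Ezr, ezrin, was higher, at 143.7 ± 10.7 and 153.1 ± 8.76 TPM, Msn, moesin, was lower, at 43.8 ± 2.08 and 47.8 ± 2.19 TPM, and Nf2, merlin, a relative of the ERM proteins, was at 66.6 ± 7.07 and 63.1 ± 2.97 TPM (hete and homo, SD, n = 4 each).

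The balance between relatives was compared as a ratio within each library, which does not depend on the scaling of the library. Of the 4 ratios, 0 differed between groups by a two-sided exact permutation test, where 4 against 4 libraries allow no p below 0.0286. Pls1 stood at 0.290, 0.236, 0.302 and 0.291 times the level of Pls3 in hete and at 0.306, 0.370, 0.289 and 0.328 times in homo. Homo replicate 3 lay inside the hete range here, so the groups overlapped. The log2 ratio averaged -1.84 ± 0.16 in hete against -1.64 ± 0.15 in homo (SD, n = 4 each), a difference of 0.21 (exact permutation test, p = 0.114; adjusted over the 4 ratios, 0.457). Espn stood at 1.93 to 1.98 times Espnl in hete, the narrowest spread of the 4 ratios, and at 1.81 to 2.21 times in homo (difference of the mean log2 ratio -0.01; exact permutation test, p = 0.943). Fscn2 over Fscn1 was 0.030 to 0.046 in hete and 0.026 to 0.045 in homo (difference -0.03; exact permutation test, p = 0.914). Eps8 over Eps8l2 was 0.306 to 0.451 and 0.345 to 0.406 (difference -0.10; exact permutation test, p = 0.486). Adjusted over the 4 ratios, p was 0.943 for each of these 3.

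**Figure D3:**
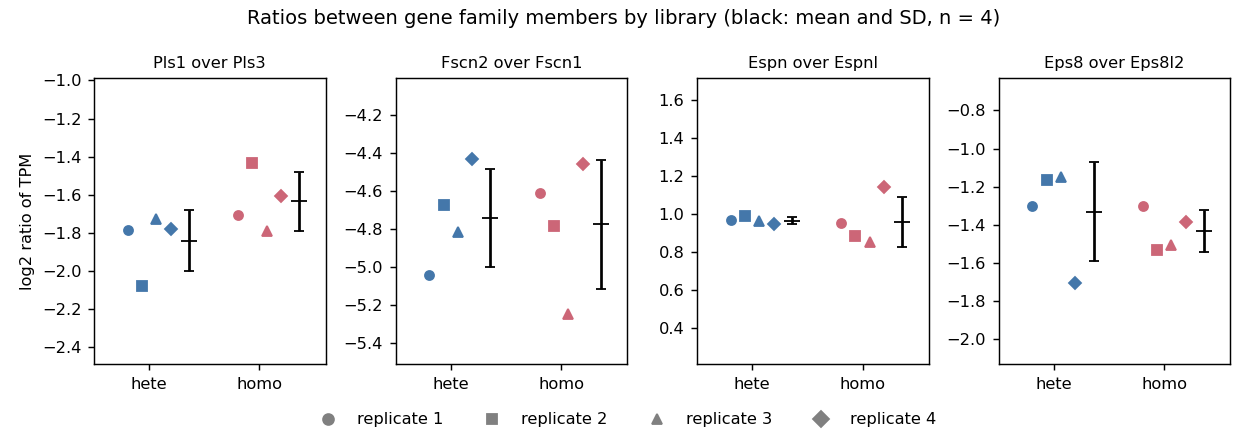
Log2 ratio of TPM between relatives in each library (vertical axes all span 1.5 log2 units; blue hete, red homo; black bars are mean and SD, n = 4; marker shapes give the replicate number). The groups overlap in all 4 panels, and the hete libraries of Espn over Espnl lie within 0.95 to 0.99.

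From library to library the 10 genes did not vary as a block. The mean log2(TPM + 1) of the 20 hair cell markers, which include none of the 10 genes, was 3.64, 3.74, 3.85 and 3.97 in the hete libraries and 3.63, 3.73, 3.44 and 3.75 in the homo libraries. Espn followed this level: it was highest in hete replicate 4, where the marker mean was highest, and lowest in homo replicate 3, where the marker mean was lowest. Over the 8 libraries Pearson's r was 0.90 (exact permutation test, p = 0.00186; adjusted over the 10 genes, 0.0186) and Spearman's rho 0.95 (p = 0.00114; adjusted 0.0114). For Espnl r was 0.83 (exact permutation test, p = 0.0122; adjusted 0.0407) and rho 0.76 (p = 0.0368; adjusted 0.0955). Pls3 ran the other way, with r = -0.81 (exact permutation test, p = 0.0117; adjusted 0.0407) and rho = -0.83 (p = 0.0154; adjusted 0.0769). With the group means subtracted, r was 0.93 for Espn, 0.84 for Espnl and -0.83 for Pls3. Eps8, which did not pass over the 8 libraries, stood at -0.85 in the same way. No test was run on these values.

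The relations of Espn, Espnl and Pls3 no longer passed the test without 2 libraries. Without homo replicate 3 and hete replicate 4, the libraries farthest from the median of the marker mean, r was 0.78 for Espn (exact permutation test, p = 0.0667), 0.75 for Espnl (p = 0.0917) and -0.59 for Pls3 (p = 0.212), with 6 libraries left. The other 7 genes did not pass after adjustment: r was 0.66 for Triobp, 0.29 for Fscn2, -0.10 for Rdx, -0.33 for Pls1, -0.34 for Eps8l2, -0.65 for Fscn1 and -0.69 for Eps8 (exact permutation tests, adjusted p from 0.127 to 0.809). Homo replicate 3 held the highest value of Fscn1, Pls3, Eps8 and Eps8l2 together with the lowest value of Espn. The libraries share a fixed TPM total, so a gene's share can move because others do; this was not tested.

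**Figure D4:**
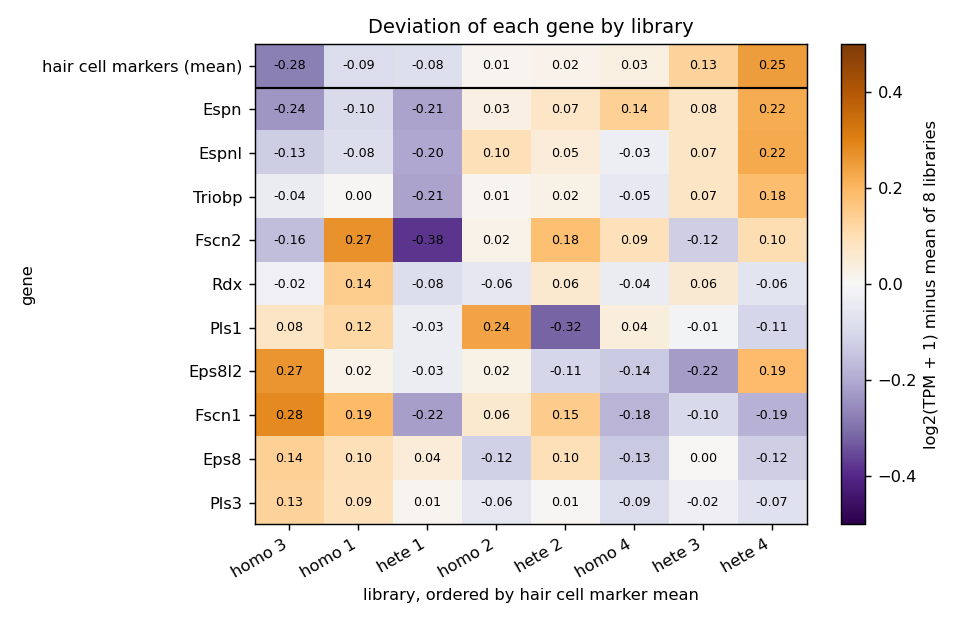
Deviation of log2(TPM + 1) from the mean of the 8 libraries, in log2 units (color and printed number), for the hair cell marker mean (top row) and each gene (rows ordered by their r with it); columns are libraries ordered from the lowest to the highest marker mean. Espn and Espnl run from negative on the left to 0.22 on the right. Fscn1, Eps8 and Pls3 are positive in homo replicates 3 and 1, farthest left, and Fscn1 is at -0.22 in hete replicate 1, the next column.

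Set against the hair cell markers of its own library, each gene was somewhat higher in homo than in hete, with differences of 0.08 (Espn) to 0.40 (Pls1) in log2 units. The 10 differences share the marker mean and are not separate observations. None passed a two-sided exact permutation test: the smallest p was 0.0571, for Pls1, where homo libraries stood 0.93 ± 0.14 and hete libraries 0.53 ± 0.19 above the marker mean (SD, n = 4 each), and adjusted over the 10 genes the p-values were 0.286 to 0.40. Espn lay 0.36 ± 0.08 above the marker mean in hete and 0.44 ± 0.05 in homo, and Fscn2 stood at -1.69 ± 0.21 and -1.42 ± 0.15 relative to it (SD, n = 4 each).

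The closest patterns to single members over the 8 libraries were sought among 12387 named genes averaging 5 TPM or more, by Pearson's r on log2(TPM + 1). These are the highest of many values and carry no test. For Espn they were Rtn2 (0.99), Asic1 (0.96) and Brsk2 (0.96). For Fscn2 they were Pip4k2a (0.99), Nbea (0.96) and Arhgap33 (0.96), and for Pls1 they were Rnf20 (0.97), Snapc2 (0.95) and Mbip (0.93). For Rdx the closest was Coch (0.98), which encodes cochlin, a matrix protein of cochlear fibrocytes, followed by Gtf3c3 (0.96) and Ppm1m (0.95). Among the 10 genes themselves, the highest r were those of Pls3 with Eps8 (0.91), Espnl with Triobp (0.90) and Espn with Espnl (0.87), and the lowest that of Espn with Pls3 (-0.81).

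Other genes of the stereocilium core were not called either. Of 20 listed genes of the actin core and its length control, 19 passed the filter, 12 were higher and 7 lower in homo, and 0 were called (median log2 fold change 0.02). Its highest genes were the actins Actg1, at 1488 ± 90.5 TPM in hete and 1622 ± 88.9 in homo, and Actb, at 1142 ± 112 and 1246 ± 81.6, and Gsn, the actin-severing gelsolin, at 375 ± 32.6 and 368 ± 13.7 (SD, n = 4 each). Myo15a, the motor that carries Eps8, had 2.93, 3.56, 3.17 and 4.27 TPM in hete and 2.59, 2.83, 2.31 and 1.99 TPM in homo. All homo values of Myo15a lay below all hete values (log2 fold change -0.38, SE 0.14, adjusted p by limma-trend = 0.746). Of all tested genes, 3.99% had groups that did not overlap, in either direction. Myo15a was 1 of the 19 genes tested in this list. Whrn, the scaffold whirlin that travels with them, was at 13.5 ± 2.39 and 12.2 ± 0.48 TPM (log2 fold change -0.13, SE 0.12). Cobl, an actin nucleator, chosen after its values were seen as the list member with the smallest p, had 31.42 to 36.70 TPM in hete and 40.19 to 45.22 TPM in homo, at a log2 fold change of 0.35 (SE 0.07; adjusted p by limma-trend = 0.426). Of 10 genes of the stereocilium base and taper, 4 were higher, 6 lower and 0 called (median -0.06; 0.02 without hete replicate 4, and -0.0063 when at least 5 TPM in 4 samples was asked). The most abundant were the motor Myo6 at 80.6 ± 7.54 and 77.7 ± 2.41 TPM, Lmo7 at 70.3 ± 5.18 and 77.1 ± 6.09, and Ptpn13 at 30.4 ± 3.04 and 31.1 ± 1.09 (hete and homo, SD, n = 4 each). Of 7 relatives of the 10 genes, 5 passed the filter and 0 were called (median 0.09).

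Markers of hair cells and of other cells in the tissue were read beside these values. Hair cell markers were lower in homo for 15 of 20 genes (median log2 fold change -0.15, 0 called; limma-trend, unadjusted p under 0.05 for 5 genes, all lower, where 6.05% of all tested genes had such a p), and without hete replicate 4 the median was -0.04. The most abundant were Ocm, the calcium buffer of outer hair cells, at 177 ± 73.7 and 90.2 ± 26.4 TPM, and Calb2 and Pvalb, calcium buffers that spiral ganglion neurons also make, at 91.5 ± 31.8 and 96.7 ± 28.6 and at 68.7 ± 18.9 and 70.8 ± 21.2 TPM (hete and homo, SD, n = 4 each). Over the 10 actin genes the median was 0.03, and for Espn, the member with the highest r with the marker mean, the log2 fold change was -0.08. Supporting cell markers, led by Gjb2, Tecta and Gjb6, were higher for 11 of 15 genes (median 0.05; summed level 2030 to 2206 TPM in hete and 2187 to 2480 in homo). The listed neuron markers, led by Gata3, Isl1 and Nefm, were higher for 10 of 10 (median 0.16; 329 to 471 and 387 to 596 TPM), and Schwann and satellite glia markers for 8 of 8 (median 0.17; 874 to 1473 and 849 to 1755 TPM). Gata3 and Nefm did not move together in hete. Replicate 4 had 176.91 TPM of Gata3 and 49.39 of Nefm, and replicate 2 had 124.72 and 76.76. The summed level of the neuron list may thus not follow neurons alone. Unadjusted p was under 0.05 for 3 supporting cell, 3 neuron and 1 glia marker by limma-trend, all higher. Of all tested genes, 6.05% had such a p and 56.3% were higher in homo. Hete replicate 1 carried much of these medians: without it they were -0.0033 for supporting cell, 0.0092 for neuron and 0.0036 for glia markers, and without homo replicate 3 the last 2 were 0.31 and 0.43. Mesenchyme and fibrocyte markers (Col1a2, Dcn and Vim highest) were higher for 7 of 8 (median 0.11; 2443 to 2933 and 2432 to 3288 TPM). Endothelial markers (Emcn, Egfl7 and Cldn5 highest, with 4 of 8 higher, median 0.00) and macrophage markers (C1qa, Csf1r and C1qb highest, with 3 of 8 higher, median -0.02) stood near 0. For 1 macrophage marker, which was lower, the unadjusted p by limma-trend was under 0.05. Erythroid markers (Hbb-bs, Hba-a2 and Hba-a1 highest) were lower for 5 of 5 tested (median -0.21; -0.07 without hete replicate 2 and -0.38 without hete replicate 4). None of these marker genes was called, no listed marker was at 0 in all libraries, and the part of cell makeup in the values of the 10 genes was not tested.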

How the data were processed

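The table used holds, for 78317 genes and 8 libraries, TPM that the authors deposited, rounded to 2 decimals; each library sums to about 1000000. The tools fastp, HISAT2, StringTie, RSEM and DESeq2, with no role or version, and the build GRCm39 are named per the submitters' processing notes. Per the labels' protocols, libraries were made from 1 µg of total RNA with a stranded mRNA kit. Groups came from the sample titles.

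The 17811 genes averaging 1 TPM or more were fitted as log2(TPM + 1) with limma 3.58.1 (trend, robust eBayes) in R 4.3.3, genotype being the only term, and p-values were adjusted by Benjamini-Hochberg over all of them. The limma fit was tried on simulated data with planted fold changes larger than any estimated for the 10 genes. That trial does not show how well differences as small as theirs are found. Ratios, relative levels and correlations used exact permutation over libraries in Python 3.11.15; figures used matplotlib 3.10.9. All 10 genes were named by rule, of each other list but the glia markers, which are not reported by gene here, the 3 highest by mean TPM, and Myo15a and Whrn as partners of Eps8. Lcp1, Fscn3, Eps8l1 and Eps8l3 were named outside the rule, as relatives, and Cobl after its values were seen. Members and lists were chosen with earlier results of these data known. Chromosomes come from GENCODE M21 (GRCm38). Libraries with equal numbers did not deviate together (r -0.08 to 0.05), so numbers were not used as pairs. Tables of splicing event numbers and of gene ontology enrichment were not used. Alternatives were other scalings, filters, a pseudocount of 0.1, eBayes without the robust option, a replicate block and each library left out.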

Additional observations from a re-analysis of the deposited data

Results flagged for a closer look

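Rdx stood at 99.95 TPM in homo replicate 1, far from the other 3 homo libraries, of which the nearest was at 88.98 TPM; the gap was 0.832 of the group's range, and 0.822 on log2(TPM + 1). Without homo replicate 1 the log2 fold change of Rdx was -0.03 in place of 0.02. The log2 ratio of Pls1 over Pls3 was -2.08 in hete replicate 2, below the other 3 hete libraries, of which the nearest was at -1.78; the gap was 0.840 of the range, and 0.823 for the ratio itself. Without hete replicate 2 the difference in this log2 ratio was 0.13 in place of 0.21 (exact permutation test, p = 0.257). These were the 2 values whose gap was past Dixon's critical value for 4 samples, each on 1 of 2 scales, in 30 groups of 4 libraries screened (the 10 genes and the 4 ratios with and without the logarithm, and the hair cell marker mean). Chance alone flags about 1 in 20 groups.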

How the results depend on the processing

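With any alternative scaling, filter, pseudocount, replicate block or left-out library, 0 of the 10 genes were called; their log2 fold changes stayed within -0.16 to 0.27. Fscn2 was not tested with at least 5 TPM in 4 samples. Signs turned where differences were near 0: Rdx was at -0.0089 with quantile normalization and at -0.031 to 0.038 with a library left out, Eps8 at -0.058 to 0.033 and Triobp at -0.11 to 0.022. Leaving out a library gave -0.14 to 0.12 for log2 Fscn2 over Fscn1 and -0.068 to 0.028 for Espn over Espnl. Relative to hair cell markers, Fscn2 stood at 0.20 to 0.37, Pls1 at 0.34 to 0.48 and Triobp at 0.069 to 0.18 in the same way. Each reached an exact permutation p of 0.0286 in 1 of these: Fscn2 without hete replicate 2, Pls1 without hete replicate 1 and Triobp without homo replicate 4. These p-values are unadjusted and are the smallest over the 10 genes with each library left out in turn. The values also share the marker mean. Over all genes, 1 to 5 were called when a library was left out and 1 with no filter on low values. With the replicate block 1 gene was called, and no call among the 10 genes changed. Without the 2 libraries farthest from the median, r with the hair cell markers was 0.78 for Espn, 0.75 for Espnl, -0.59 for Pls3, -0.84 for Eps8l2 (p = 0.0306, exact permutation), -0.033 for Fscn2 and 0.018 for Rdx. The cause of these shifts was not tested. TPM holds no depth, so a limit from read numbers cannot be given.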
